A study of Homo sapiens with 3 samples.

Results

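The replication-dependent histone genes were taken as all gene symbols that begin with HIST1H, HIST2H, HIST3H or HIST4H, the older names under which the gene lists hold them. The rule uses names and no measured value. It found 53 genes among the 18856 genes listed in at least 1 of 3 libraries. They code for linker histone H1 (5 genes), H2A (10), H2B (18), H3 (10) and H4 (10). Most of them lie in the large cluster on chromosome 6, named HIST1 (42 genes), and the others in the clusters HIST2 (7), HIST3 (3) and HIST4 (1). RefSeq names hold 92 such older symbols, and the remaining 39 were listed in no library.

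The 3 libraries used here were each made from 10 pg of polyA+ mRNA. All values below are from 1 library per condition, so no test between conditions was possible. The study also describes a repeat of LIEA on HBE, which was not analysed here. HBE LIEA came from HBE, a line of human bronchial epithelial cells, and A549 LIEA from A549, a line of lung adenocarcinoma cells. In LIEA, the low-input, equal-amplification method, the mRNA is fragmented and adapters are ligated before reverse transcription. The cDNA library is amplified by PCR, and single molecules are then amplified on beads for Ion Torrent sequencing. HBE Smart-seq2 came from the same HBE RNA by Smart-seq2, in which an oligo-dT primer starts reverse transcription at runs of adenosines, full-length cDNA is amplified, and the library is read on an Illumina machine. No treatment is named for either line. Each line was sampled as bulk RNA diluted to this amount.

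Replication-dependent histone genes supply the histones that package new DNA in S phase. Their mRNAs are the best known metazoan mRNAs without a polyA tail. The pre-mRNA has no intron as a rule and is cut shortly after a conserved stem-loop, which the stem-loop binding protein SLBP holds, with help of the U7 snRNP. Replacement histones such as H2A.Z and H3.3 come from separate genes with ordinary polyadenylated mRNAs and are made throughout the cell cycle. A minority of replication-dependent genes can also give longer, polyadenylated transcripts, which appear in cells that leave the cycle or differentiate. Selection of polyA+ mRNA is known to remove most, though not all, replication-dependent histone mRNA.

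The stem-loop is shown first because it marks these transcripts as non-polyadenylated in their usual form. It was searched on the strand of the transcript, in the 100 bases after the stop codon in the hg19 genome, as GG, any 3 bases, TTT, any 2 bases, A, a run that pairs with the first 3, and CC. Of the 50 histone genes with an annotated coding sequence, 46 held it, 22 to 67 bases after the stop codon. Among 20078 other protein-coding genes, 2 did (0.00996%). The stem read GGCTCT in 36 genes and GGCCCT in 10, and the loop read tttc in 35. No match was found in this window in HIST1H2AG, HIST1H2AK, HIST1H2BI and HIST1H3E, which says only that these letters were absent there. HIST1H2BF and HIST1H2BG had no matching transcript in the annotation and HIST2H2BC is annotated as a pseudogene. The sequences of 5 genes to which the results return follow, 5′ to 3′ on the transcript's strand, with the paired stem in capitals and the loop in lower case. They lie in the 3′ UTR, at chr6:27114145-27114160 on the minus strand (HIST1H2BK), chr6:26055972-26055987 on the minus strand (HIST1H1C), chr6:26104545-26104560 on the plus strand (HIST1H4C), chr6:27798956-27798971 on the minus strand (HIST1H4K) and chr1:149857738-149857753 on the minus strand (HIST2H2BE).
HIST1H2BK: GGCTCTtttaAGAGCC
HIST1H1C: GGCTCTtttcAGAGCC
HIST1H4C: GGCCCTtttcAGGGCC
HIST1H4K: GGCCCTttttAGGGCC
HIST2H2BE: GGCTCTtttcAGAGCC

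The AATAAA hexamer, the signal for cleavage and polyadenylation of ordinary mRNAs, was searched in the last 50 nt of every annotated transcript. It was present in 14 of the 51 histone genes with a transcript, against 76.6% of 17677 other listed genes. In 12 of the 14 it ended a transcript other than the usual short one, often with a further exon. In HIST1H2BH and HIST1H4J the transcript is the usual short one, and the hexamer lies before the stem-loop. In HIST1H2BH it overlaps the stop codon, and in HIST1H4J it comes just before the first bases of the stem-loop. Shown next are 3 genes with reads in all libraries, from 3′ UTR positions chr6:26139304-26139333, plus strand (HIST1H2AC), chr6:26171541-26171570, plus strand (HIST1H2BD), and chr1:149856015-149856044, minus strand (HIST2H2BE), with the hexamer in capitals.
HIST1H2AC: ctggcatgaggtAATAAAaggtaatgcaaa
HIST1H2BD: aaagttataattAATAAAatctgcggagaa
HIST2H2BE: gctattgttattAATAAAgttaccaattaa

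The libraries held 4605855 (HBE LIEA), 4154060 (A549 LIEA) and 9845150 (HBE Smart-seq2) mapped reads, as recovered from the deposited log2 rpkM values (rpkM is the reads-per-million value of a gene, RPM below, divided by its length in kilobases). A gene that was not listed had no mapped read, and a count of 0 allows up to 3 reads, which is 0.651, 0.722 and 0.305 RPM in that order. Intervals below are at the 95% level and cover counting error alone, since PCR copies are not independent molecules, and the spread between libraries of 1 condition is unknown. The line labels were checked on markers. KRT5, a keratin of bronchial basal cells, was at a log2 rpkM of 9.11 and 8.67 in the HBE libraries and 0.91 in A549, and AKR1B10, an aldo-keto reductase abundant in A549, was at -0.07, 0.55 and 11.76.

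Few reads came from the histone genes in any library. HBE LIEA had 202 reads on them, 43.9 RPM (38.2 to 50.3). A549 LIEA had 725 reads, 174.5 RPM (162 to 188), and HBE Smart-seq2 had 1494, 151.8 RPM (144 to 160). The 12 replacement histone genes, in contrast, had 1708, 1890 and 1500 RPM in the same order. Of the reads on both kinds of histone gene, the replication-dependent genes thus took 2.50% (2.18 to 2.87) in HBE LIEA, 8.45% (7.88 to 9.06) in A549 LIEA and 9.18% (8.75 to 9.64) in HBE Smart-seq2. These shares count reads, which also depend on transcript length. By summed rpkM the gap was smaller, with 78.7, 276.6 and 294.3 for the replication-dependent genes and 1127.5, 1196.7 and 1101.9 for the replacement genes.

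Being listed was common among the histone genes, but on very few reads. HBE LIEA listed 37 of the 53 (69.8%), A549 LIEA 36 (67.9%) and HBE Smart-seq2 37 (69.8%), whereas of all 18856 genes 85.2%, 88.6% and 87.5% were listed. At 10 or more reads, the study's criterion for a quantified gene, there were 5 histone genes in HBE LIEA (9.43%, against 65.3% of all genes), 15 in A549 LIEA (28.3%, against 66.8%) and 14 in HBE Smart-seq2 (26.4%, against 68.6%). Histone genes listed on 1 to 3 reads numbered 22, 16 and 16. In all, 24 histone genes reached 10 reads in some library and 29 stayed at 9 reads or fewer in each. HIST1H3G, with 9 reads in HBE LIEA, lay just below that line, and HIST2H2AA4 in HBE LIEA and HIST1H2BJ, HIST2H2BC and HIST4H4 in A549 LIEA lay on it with 10.

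**Figure D1:**
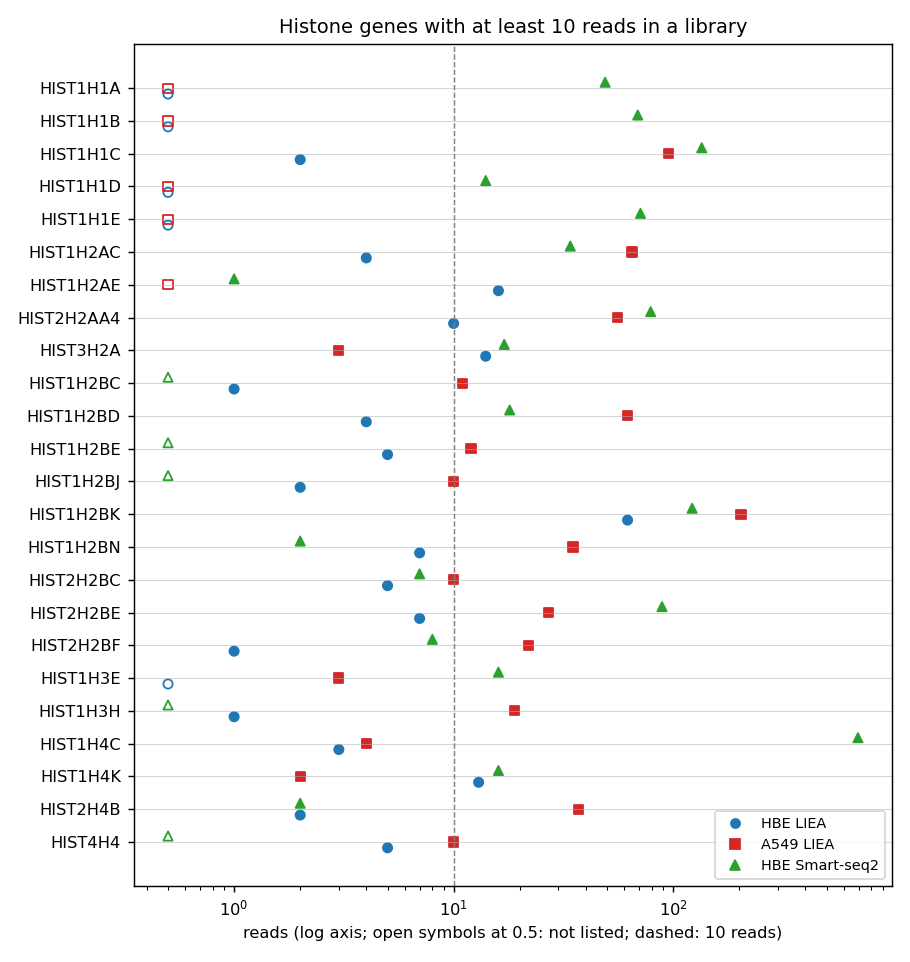
Reads per library (log axis) of the 24 histone genes with at least 10 reads in 1 library, grouped by histone type from H1 at the top to H4 at the bottom; open symbols mark genes not listed in a library and the dashed line 10 reads. HIST1H1A, HIST1H1B, HIST1H1D and HIST1H1E have reads in HBE Smart-seq2 and none in the other libraries, and HIST1H4C stands far to the right in HBE Smart-seq2 with 695 reads.

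All 3 libraries listed 18 histone genes (34.0% of the 53), while 75.1% of the 18856 genes were listed in all. A further 9 (16.98%, against 3.57% of all genes) were listed in both LIEA libraries and not in Smart-seq2, among them HIST1H3H, HIST1H2BC, HIST1H2BE, HIST1H2BJ and HIST4H4, with at most 19 reads. The 6 listed in both HBE libraries and not in A549 LIEA (11.3%, against 4.31%) were HIST1H2AE, HIST1H2BF, HIST1H2BH, HIST1H3G, HIST1H3J and HIST1H4J. A549 LIEA and HBE Smart-seq2 shared 6 more (11.3%, against 3.32%), of which HIST1H3E was highest at 16 reads. HBE Smart-seq2 alone listed 7 (13.2%, against 4.78%), namely HIST1H1A, HIST1H1B, HIST1H1D, HIST1H1E, HIST1H2AL, HIST1H2BG and HIST1H3C, with up to 71 reads. The 4 listed by HBE LIEA alone (7.55%, against 2.28%), which were HIST1H2BI, HIST1H2BM, HIST3H2BB and HIST3H3, had 1 read each. The 3 listed by A549 LIEA alone (5.66%, against 6.66%), HIST1H2BB, HIST1H3B and HIST1H4I, had at most 2.

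Sequence that the genes share limits how reads can be assigned. Among 86 histone genes compared by 42-nt windows, HIST2H2AA4, HIST2H3A and HIST2H4B shared 100% of their windows with another histone gene, HIST1H4K 92.8%, HIST1H4J 92.2%, HIST2H2BC 79.8% and HIST1H2AI 64.1%. Their values are uncertain, because a read could stem from the copy. In contrast, 18 members shared no exact window, among them all 5 H1 genes, HIST1H2AE, HIST1H3H, HIST1H4C and HIST4H4. Mapping allowed up to 3 errors for Ion Torrent and 2 for Illumina, so a read from a similar gene could still be assigned to these.

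Linker histone H1 binds the DNA between nucleosomes, and its 5 genes were the most unevenly detected of the types. HIST1H1C had 2 reads in HBE LIEA (0.593 rpkM), 95 in A549 LIEA (31.2 rpkM) and 135 in HBE Smart-seq2 (18.7 rpkM). HIST1H1A had 49 reads (6.37 rpkM), HIST1H1B 69 (8.87 rpkM) and HIST1H1E 71 (9.19 rpkM), all in HBE Smart-seq2 and none in either LIEA library. HIST1H1D was likewise listed in HBE Smart-seq2 alone. It was assigned 14 reads (1.83 rpkM) there, at a length of 777 nt against 776 nt for its annotated transcript. The value alone would also allow 2 reads, but on a transcript shorter than the coding sequence of 666 nt. For a gene listed once, the exact number stays uncertain. As a type, H1 had 0.434 RPM in HBE LIEA, 22.9 in A549 LIEA, wholly from HIST1H1C, and 34.3 in HBE Smart-seq2.

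H2A pairs with H2B in the nucleosome core. HIST2H2AA4, of which an identical copy exists, had 10, 56 and 79 reads in HBE LIEA, A549 LIEA and HBE Smart-seq2, or 4.07, 25.2 and 15.03 rpkM. HIST1H2AC, an H2A gene with an annotated spliced transcript that ends with the AATAAA shown above, had 4, 65 and 34 reads (1.59, 28.7 and 6.33 rpkM). Both were lowest in HBE LIEA and highest in A549 LIEA by rpkM. HIST1H2AE went the other way, with 16 reads in HBE LIEA (6.16 rpkM), none in A549 LIEA and 1 in HBE Smart-seq2 (0.18 rpkM). HIST3H2A had 14, 3 and 17 reads (6.13, 1.46 and 3.48 rpkM), so it too was lowest in A549. The other 6 H2A genes had at most 4 reads in a library.

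H2B gave most of the histone reads in the LIEA libraries, 50.99% in HBE and 55.6% in A549, and 16.9% in HBE Smart-seq2. HIST1H2BK had 62 reads in HBE LIEA (16.04 rpkM), 204 in A549 LIEA (58.5 rpkM) and 122 in HBE Smart-seq2 (14.8 rpkM). It had the highest rpkM of the histone genes in both LIEA libraries, where it made up 30.7% and 28.1% of their reads. The length behind its values is 839 nt, against 495 nt for its annotated transcript, which ends just past the stem-loop, so the reference used for mapping held a longer transcript of this gene. HIST1H2BD had 4, 62 and 18 reads (1.07, 18.4 and 2.25 rpkM), and HIST1H2BN 7, 35 and 2 (3.38, 18.8 and 0.452 rpkM). HIST2H2BE, whose annotated transcript of 2224 nt continues long past the stem-loop to the AATAAA shown above, had 7, 27 and 89 reads (0.684, 2.92 and 4.07 rpkM). It was the only histone gene with a length over 1000 nt behind its values. HIST2H2BF had 1, 22 and 8 reads, and HIST1H2BC 1, HIST1H2BE 5 and HIST1H2BJ 2 in HBE LIEA, with 11, 12 and 10 in A549 LIEA and none in HBE Smart-seq2.

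H3 genes were the least seen of the core histones, with 12, 28 and 40 reads in all. HIST1H3H had 1, 19 and 0 reads (0.459 and 9.67 rpkM in the LIEA libraries). HIST1H3E had 0, 3 and 16 (1.56 and 3.52 rpkM in A549 LIEA and HBE Smart-seq2). HIST1H3G had 9, 0 and 6 (4.18 and 1.30 rpkM in the HBE libraries). Each of these 3 genes was thus highest in a different library, and the other 7 had at most 6 reads.

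Among H4 genes, HIST1H4C was exceptional. It had 3 reads in HBE LIEA (1.67 rpkM), 4 in A549 LIEA (2.47 rpkM) and 695 in HBE Smart-seq2 (181 rpkM), 46.5% of all histone gene reads there and the highest histone rpkM of any library. The other 9 H4 genes together had 32, 61 and 29 reads, which is 6.95, 14.7 and 2.95 RPM. HIST1H4K, most of whose sequence is shared with another H4 gene, had 13, 2 and 16 reads (7.97, 1.36 and 4.59 rpkM). HIST2H4B, with an exact copy, had 2, 37 and 2 reads (1.10, 22.5 and 0.513 rpkM), and HIST4H4, the H4 gene on chromosome 12, had 5, 10 and 0 (2.63 and 5.84 rpkM). HIST1H4E (4, 3 and 4 reads) and HIST1H4H (4, 5 and 4 reads) were near the floor in each library.

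**Figure D2:**
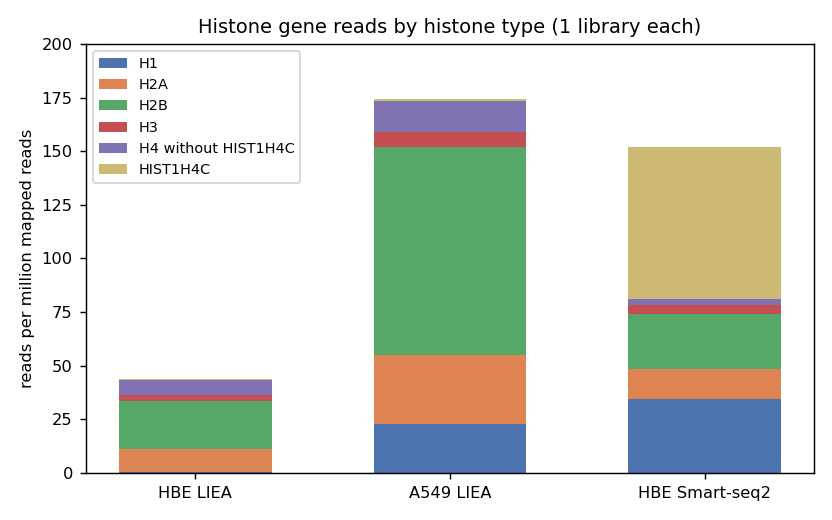
Reads-per-million values (RPM) of the histone genes in each library, stacked by histone type, with HIST1H4C apart from the other H4 genes. The LIEA bars (43.9 and 174.5 RPM) are mostly H2B and H2A, and the HBE Smart-seq2 bar (151.8) is mostly HIST1H4C and H1.

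A549 and HBE were compared within LIEA, which holds the method constant and sets the line against the line. Histone genes together had a 3.98-fold higher share of the reads in A549 (3.40 to 4.67), and 4.13-fold (3.42 to 5.01) without HIST1H2BK. In bulk RNA, more cells that carry a transcript and more RNA of it per cell cannot be told apart, nor can the line be told apart from its single library. H2B was 4.34-fold higher (3.49 to 5.44), H2A 2.97-fold (2.13 to 4.20), H3 2.59-fold (1.27 to 5.59) and H4 2.06-fold (1.35 to 3.20). The H2A ratio rested largely on HIST1H2AC and HIST2H2AA4, and the H3 and H4 ratios on a single gene each. HIST1H2AC gave 65 of 134 H2A reads in A549 and 4 of 50 in HBE. HIST2H2AA4, with an identical copy, gave 56 and 10. HIST1H3H gave 19 of 28 H3 reads in A549 and 1 of 12 in HBE. HIST2H4B, with an exact copy, gave 37 of 65 H4 reads in A549 and 2 of 35 in HBE. HIST1H2AE (0 reads in A549 against 16), HIST3H2A (3 against 14), HIST1H3G (0 against 9) and HIST1H4K (2 against 13) went the other way. The HIST3 cluster was 4.81-fold lower in A549 (1.38 to 25.8), on 16 reads against 3.

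By gene, only HIST1H2BK and HIST2H2AA4 had at least 10 reads in both LIEA libraries. HIST1H2BK was 3.65-fold higher in A549 (2.73 to 4.93) and HIST2H2AA4 6.21-fold (3.14 to 13.7), both past 2-fold, with a median log2 ratio of 2.25. Of 11293 genes compared by the same rule, 13.4% were 2-fold higher in A549, 17.3% lower and 30.7% either, with a median log2 ratio of -0.16. At 20 reads summed over both libraries, 10 histone genes passed and all were 2-fold higher in A549, against 18.5% higher, 20.4% lower and 38.9% either of 12952 genes. However, 8 of those 10 reached 10 reads in A549 alone and passed through the library in which they were high, and the 10 do not stand for all 53.

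Among these 8, HIST1H1C was 52.7-fold higher in A549 on 95 reads against 2 in HBE (14.2 to 441). HIST1H2AC was 18.02-fold higher on 65 against 4 (6.71 to 68.1) and HIST1H2BD 17.2-fold on 62 against 4 (6.38 to 65.1). HIST1H2BN was 5.54-fold higher (2.43 to 14.8) and HIST2H2BE 4.28-fold (1.82 to 11.6). HIST2H2BF, HIST1H3H and HIST2H4B also rested on 1 or 2 reads in HBE, with ratios of 24.4 (3.94 to 1007), 21.1 (3.35 to 875) and 20.5 (5.29 to 176). In the other direction, HIST1H2AE was 4.81-fold lower in A549 when set against the floor of 3 reads. With the counting error of both libraries, the lower limit was 3.48. HIST1H4K was 5.86-fold lower on 2 reads against 13 (1.33 to 53.5). None of the 15 histone genes with 10 reads in A549 LIEA was unlisted in HBE LIEA (3.32% of 12589 genes were), and 1 of 5, HIST1H2AE, was the reverse (1.93% of 12316 genes).

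**Figure D3:**
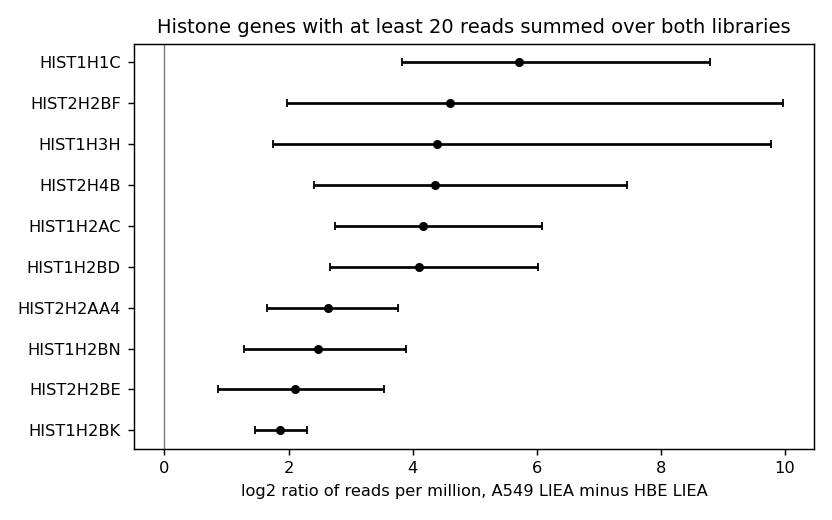
Log2 ratio of RPM, A549 LIEA minus HBE LIEA, for the 10 histone genes with at least 20 reads summed over both libraries; bars are exact 95% counting intervals, which do not include the spread between libraries. All 10 points lie above 0, from 1.87 for HIST1H2BK to 5.72 for HIST1H1C.

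By annotation, the 16 genes whose longest transcript is over 1000 nt or has more than 1 exon had 59 reads in HBE LIEA and 321 in A549 LIEA, a 6.03-fold higher share in A549 (4.56 to 8.10), and the 35 short ones 142 and 404, a 3.15-fold higher share (2.60 to 3.85). The 14 genes with an annotated AATAAA end, a class added after its values were seen, had 41 and 297 reads, an 8.03-fold higher share (5.78 to 11.4), and the 37 others 160 and 428, a 2.97-fold higher share (2.47 to 3.58). Each class was thus higher in A549, and the difference between classes was not tested. The 16 long or spliced genes took 29.2% of the histone reads in HBE LIEA, 44.3% in A549 LIEA and 12.9% in HBE Smart-seq2. With HIST1H2BK and HIST1H3D, whose length in the files exceeds the coding length by at least 200 nt, added to the AATAAA genes, a class chosen after its values were seen, 16 genes held 50.99%, 69.2% and 20.3% of the histone reads. The remaining 35 genes, with neither feature, still had 98, 223 and 1187 reads.

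The genes around the histone genes moved differently between the lines. Of the 12 replacement histone genes, 2 were 2-fold higher in A549 (H2AFJ and H1FX, log2 ratios 1.76 and 1.19) and 0 lower, with a median of 0.25. H2AFZ, coding for H2A.Z, was at a log2 rpkM of 8.82 in HBE LIEA and 8.13 in A549 LIEA, H2AFX at 6.43 and 5.72, and H3F3B, coding for H3.3, at 6.64 and 7.17. Of 11 factors for histone gene transcription and 3′ end processing, 10 could be compared, 0 were 2-fold higher and 1 was lower (CASP8AP2, -1.22), with a median of -0.23. SLBP was at a log2 rpkM of 5.46 and 4.49, a difference of -0.97, and NPAT, the activator of histone gene transcription, at 1.16 and 0.77. Of 13 S-phase genes, 12 could be compared, 0 were 2-fold higher in A549 and 5 lower, with a median of -0.47. RRM1, a subunit of ribonucleotide reductase, differed most of these 12 (-1.96), while PCNA, the sliding clamp of DNA polymerase, was higher (6.85 and 7.81). CCNE2, with 46 reads in HBE and 6 in A549 (-2.79), and LSM11, a processing factor with 35 and 9 (-1.81), missed the limit of 10. At 20 reads summed, 6 of 13 S-phase genes and 2 of 11 factors were 2-fold lower in A549 and 0 higher. Whether these differences have a part in those of the histone genes was not tested.

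HBE LIEA and HBE Smart-seq2 were compared because they start from the same RNA and differ in method. Method, sequencer, mapping allowance and single library cannot be told apart here, and the Smart-seq2 library was 2.14 times as deep. Histone genes together had a 3.46-fold higher share of the reads in Smart-seq2 (2.99 to 4.03). Most of that lay on HIST1H4C, 108-fold higher (36.9 to 527), and on H1, 79.1-fold higher as a type (21.7 to 656). Without HIST1H4C and the 5 H1 genes, a set left out after its values were seen, the 47 other genes had 42.8 RPM in LIEA and 46.8 in Smart-seq2, a ratio of 0.913 (0.769 to 1.08), and the interval includes 1. The H4 genes other than HIST1H4C were 2.36-fold higher in LIEA (1.38 to 4.04), on 32 reads against 29. H2A had a LIEA to Smart-seq2 ratio of 0.763 (0.541 to 1.06), H2B of 0.874 (0.688 to 1.10) and H3 of 0.641 (0.306 to 1.25), all with intervals that include 1.

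Only HIST1H2BK, HIST1H4K, HIST2H2AA4 and HIST3H2A had at least 10 reads in both HBE libraries. Their median log2 ratio, LIEA minus Smart-seq2, was 0.46, against 0.10 over 11721 genes. HIST2H2AA4 was past 2-fold, 3.70-fold higher in Smart-seq2 (1.91 to 8.01), and 0 of the 4 were 2-fold higher in LIEA. Over all those genes 19.4% were 2-fold lower in LIEA, 27.8% higher and 47.2% either. HIST1H2BK was at a ratio of 1.09 (0.787 to 1.49), HIST1H4K at 1.74 (0.769 to 3.85) and HIST3H2A at 1.76 (0.803 to 3.79), with intervals that include 1.

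At 20 reads summed over both HBE libraries, 12 histone genes passed, 9 were 2-fold lower in LIEA and 0 higher, against 21.6% lower, 28.1% higher and 49.7% either of 12859 genes. Here 8 of the 12 passed through Smart-seq2 alone. HIST1H1C was 31.6-fold higher in Smart-seq2 (8.57 to 263). Set against the floor of 3 reads, HIST1H1A was 7.64-fold, HIST1H1B 10.8-fold and HIST1H1E 11.1-fold higher. With the counting error of both libraries, the lower limits were 5.98, 8.52 and 8.77. HIST2H2BE was 5.95-fold higher (2.77 to 15.2) and HIST1H2AC 3.98-fold (1.42 to 15.4). Other genes were higher in LIEA. HIST1H2AE had a ratio of 34.2 on 16 reads against 1 (5.31 to 1434), HIST1H2BN of 7.48 on 7 against 2 (1.42 to 73.8) and HIST1H3G of 3.21 on 9 against 6 (1.02 to 10.9). HIST1H2BE and HIST4H4 had 5 reads each in LIEA and none in Smart-seq2. Of the 14 histone genes with at least 10 reads in Smart-seq2, 5 had none in LIEA (HIST1H1A, HIST1H1B, HIST1H1E, HIST1H3E and, on its uncertain 14 reads, HIST1H1D), against 1.0% of 12938 genes. Of the 5 with at least 10 in LIEA, 0 had none in Smart-seq2 (0.901% of 12316 genes).

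The genes high in Smart-seq2 were then described by adenosine content, since an oligo-dT primer can anneal to adenosines inside a transcript. For each gene, the 20-nt window of the transcript with most adenosines was found. The transcript searched was the annotated one nearest in length to that behind the gene's values, protein-coding where possible. HIST1H4C had 18 of 20, in the 3′ UTR, 31 bases after the stop codon and 6 bases before the stem-loop. The H1 genes had 12 or 13, all in the coding sequence, where lysine codons are frequent in the tails of H1. HIST1H4K, whose ratio between the methods had an interval that includes 1, had 8. The windows are shown with adenosines in capitals, from hg19 positions chr6:26104519-26104538, plus strand (HIST1H4C), chr6:26017443-26017462, minus strand (HIST1H1A), chr6:27835228-27835247, minus strand (HIST1H1B), chr6:26056186-26056205, minus strand (HIST1H1C), chr6:26234699-26234718, minus strand (HIST1H1D), chr6:26157120-26157139, plus strand (HIST1H1E), and chr6:27799227-27799246, minus strand (HIST1H4K).
HIST1H4C: AAAAAAcAAAAAcAAAAAAA
HIST1H1A: AAgAAtccAAAAAAAcccAA
HIST1H1B: AAgAAgAAggcAActAAgAA
HIST1H1C: ctAAgAAAAcAccgAAgAAA
HIST1H1D: gAAgAAAAgcAtcAAAAAgA
HIST1H1E: AAAAAAgcgAAAAgcccgAA
HIST1H4K: tAAAgtActgcgcgAcAAtA

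In all, 9 histone genes had a window with at least 12 adenosines, a limit set after the values were seen: these 6 and HIST1H2BD (14), HIST2H2AC (13) and HIST2H2BF (12). They had 10 reads in HBE LIEA, 184 in A549 LIEA and 1062 in HBE Smart-seq2, of which 695 were from HIST1H4C, or 2.17, 44.3 and 107.9 RPM. The 42 genes below the limit had 191, 541 and 429 reads, or 41.5, 130.2 and 43.6 RPM. Because the genes high in Smart-seq2 prompted the limit, these sums only describe them again. HIST1H2BK, with 62, 204 and 122 of the reads below the limit, was searched over 495 nt, against 839 nt behind its values. HIST1H2AC was searched over 519 nt and not over its annotated transcript of 1668 nt. Below the limit, HIST2H2BE with 11 adenosines and HIST1H2AC, HIST2H2AA4 and HIST1H3E with 10 each were also higher in Smart-seq2, at 7, 4, 10 and 0 reads in LIEA against 89, 34, 79 and 16, with counting intervals beyond 1. HIST1H1C, HIST1H2BD and HIST2H2BF, above it, had 95, 62 and 22 reads in A549 LIEA, a library made without oligo-dT priming at the reverse transcription step. Such windows are common: 47.0% of the 1784 other listed genes of at most 1000 nt had one with at least 12 adenosines, but 0.841% had one with at least 18. Whether these stretches caused the difference was not tested.

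**Figure D4:**
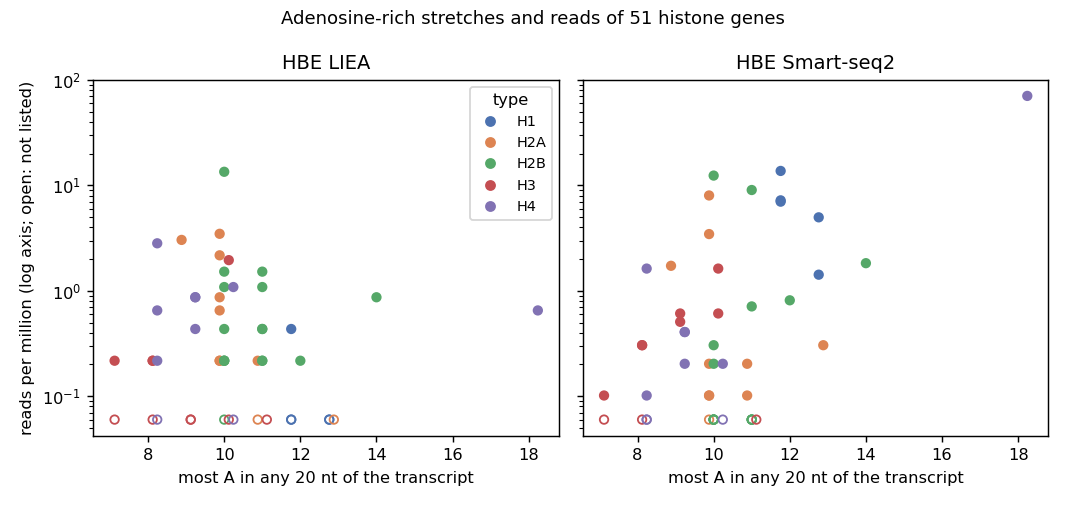
RPM in both HBE libraries (log axes) against the most adenosines in any 20 nt of the transcript, for the 51 histone genes with an annotated transcript; points are shifted slightly sideways by type, and open circles at the bottom are genes not listed. In HBE Smart-seq2 all 9 genes at 12 or more were listed, with HIST1H4C at the top right, and in HBE LIEA 4 of the 9 were listed.

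Other genes of the pathway differed between the methods in both directions. Of 12 replacement histone genes, 4 had a ratio of at least 2 towards LIEA and 1 towards Smart-seq2 (H3F3C), with a median log2 ratio of 0.65. H1FX, the gene of the replacement linker histone H1X, had 254 reads in HBE LIEA, 522 in A549 LIEA and 11 in HBE Smart-seq2, a log2 ratio of 5.63 between the methods, opposite to the replication-dependent H1 genes. Of the 11 processing and transcription factors, 2 were higher in LIEA (SYMPK, 3.18, and LSM11, 2.90) and 2 lower, with a median of -0.62, and SLBP was at a log2 rpkM of 5.46 (LIEA) and 6.11 (Smart-seq2). For the 13 S-phase genes, 2 were higher in LIEA and 3 lower, with a median of 0.45.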

How the data were processed

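Total RNA was extracted with Trizol and 10 pg of polyA+ mRNA entered each of 3 libraries. The authors dropped Ion Torrent reads of low quality, mapped reads with FANSe2 to human RefSeq-RNA sequences (up to 3 errors for Ion Torrent and 2 for Illumina), merged splice variants and took 10 reads as the limit for a quantified gene. The build named in the submitters' processing notes is hg19. The deposited values are log2 rpkM per gene, with no pseudocount.

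The design assumed rpkM, so rpkM was computed as the power of 2. Reads were then recovered from the steps of these values: all 18856 genes gave whole reads, with a common factor, chosen up to 12 by closeness to annotated transcript lengths, above 1 for 1274 genes. The recovery was tested on simulated data, where it returned the totals but not the exact reads of every gene, so the reads of a single gene can be off by a whole factor. Recovered reads sum to 98.5%, 98.8% and 98.8% of the totals. In each library 4 rows with repeated names, and in Smart-seq2 1589 blank rows, were left out.

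A gene was past 2-fold at an absolute log2 ratio of at least 1 with at least 10 reads in both libraries. No test was run. Intervals are Wilson's for shares and exact (Clopper-Pearson) for ratios. Sequences and coordinates came from GRCh37 (hg19) with GENCODE release 44 lifted to it (51 of 53 histone genes and 94.0% of listed genes matched). Python 3.11.15, scipy 1.17.1, pandas 2.3.3 and pysam 0.24.0 were used. The histone genes and the other gene lists were chosen with earlier results of these data known. Named genes are the 10 highest rpkM per library, the 5 largest ratios in each direction, and genes with 10 reads in 1 library that another does not list, and others are named by role or after their values were seen.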

Additional observations from a re-analysis of the deposited data

How the results depend on the processing

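No paired analysis was possible because the conditions have 1 library each, and no replicate was there to leave out. Of 67 values under alternatives, 33 stayed within their counting error or 1.5-fold, 33 moved and 1 reversed; the cause was not tested beyond the change of rule itself.

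Counting a gene as detected at 3 reads left 18 histone genes in HBE LIEA and 23 in A549 LIEA. In place of 10 reads, a limit of 5 gave 11 in HBE LIEA, a limit of 20 gave 1, 9 and 9 (HBE LIEA, A549 LIEA, HBE Smart-seq2), rpkM above 1 gave 19 and 27 in the LIEA libraries, and scaling to the smallest total gave 9 in Smart-seq2. The percent of mapped reads on histone genes, 0.00439, 0.0175 and 0.0152, was 0.00304, 0.0125 and 0.00812 without the gene with most reads, and 0.0188, 0.0590 and 0.0611 as a share of summed rpkM. Without HIST1H4C and H1 it was 0.0151 in A549 LIEA and 0.00468 in Smart-seq2. The share on long or spliced genes was 3.47%, 3.72% and 5.96% with a length in the files over 1000 nt, 36.6% and 16.2% in the HBE libraries with a length 200 nt above the coding one, and 20.3% in HBE LIEA with AATAAA.

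Between A549 and HBE LIEA, 10 of 13 genes were past 2-fold at 3 reads in both (9 higher and HIST3H2A lower; 34.9% of all genes), 1 of 1 at 20 in both (28.2% of all) and 10 of 10 at 20 summed (38.9%), and the median log2 ratio was 1.41 at 3 reads, 4.14 at 20 summed and 4.17 with HIST1H2BK also left out. Between HBE LIEA and Smart-seq2, 8 of 12 were past 2-fold at 3 reads (3 higher and 5 lower in LIEA; 48.6% of all), 0 of 1 at 20 reads (46.2%), 9 of 12 at 20 summed (49.7%) and 0 of 4 when the interval had to lie beyond 2-fold. There the median changed sign, from 0.46 over 4 genes to -2.28 over 12 at 20 summed. Under that rule 8 of the 12 passed through Smart-seq2 alone, and in the comparison of lines 8 of the 10 through A549 LIEA alone. Its medians and counts are thus tilted by the rule towards the library in which these genes are high. The 200-nt and AATAAA classes, leaving out HIST1H4C and H1, and leaving out HIST1H2BK were chosen after seeing the data. Most histone genes had too few reads for a ratio at this depth.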

Other observations

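Other listed genes of at most 1000 nt were described by the same adenosine windows, between HBE LIEA and HBE Smart-seq2. Only those with at least 20 reads summed over both libraries were taken, and an unlisted gene was set to the floor of 3 reads. Those with under 12 adenosines in 20 nt had a median log2 ratio, LIEA minus Smart-seq2, of -0.23 (378 genes), those with 12 to 14 of -0.59 (358 genes), those with 15 to 17 of -0.62 (59 genes) and those with 18 to 20 of -0.94 (6 genes, too few to rely on). The ranges from the first to the third quartile overlapped, at -0.99 to 1.07, -1.49 to 0.42, -1.70 to 0.16 and -1.75 to -0.31 in that order. These values are a description over genes of 1 library per method, and a part of the adenosine windows in them was not tested. The paper reports that Smart-seq2 favoured genes low in G and C bases and that LIEA hardly did. The content of G and C was not held equal between these groups of genes, and its part was not tested.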
